A study of Mus musculus with 6 samples.

Results

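Adenylyl cyclases make cyclic AMP (cAMP) from ATP, and the stimulatory G alpha subunits switch them on. The genes described here are the 8 membrane cyclase genes Adcy1, Adcy2, Adcy3, Adcy5, Adcy6, Adcy7, Adcy8 and Adcy9 and the 2 stimulatory alpha subunit genes Gnas and Gnal. They were chosen by name. A probe counted when the platform annotation pairs it with 1 of these symbols only, which gave 28 probes of the 45037 on the array besides controls, and 10 genes of the 18193 that have a single-gene probe. The RNA came from 3 Gb5-deficient mice (KO, arrays 4 to 6) and 3 wild-type mice (WT, arrays 1 to 3), with 1 single-colour Affymetrix expression array per mouse. The sample labels say brain tissue and the series title says cerebellum. Gb5 is the G protein beta subunit encoded by Gnb5. The labels describe littermates matched for age and sex but give no age, no strain and no description of the deleted allele, and nothing says which mice were littermates.

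Receptors that couple to Gs release the alpha subunit Gs (from Gnas) or Golf (from Gnal), and either binds and activates the membrane cyclases. Receptors that couple to Gi and Go act against this, through inhibitory alpha subunits and through beta-gamma dimers that inhibit some isoforms and stimulate others. Gb5 pairs with RGS proteins of the R7 family, which speed the shut-off of Gi and Go alpha subunits, so the cyclases stand downstream of the signal that Gb5 shortens. The comparison of KO with WT addresses whether transcripts of this cAMP-generating machinery differ when Gb5 is absent.

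The label check came out as follows. The Gnb5 probe that represents the gene read 3.65, 3.36 and 2.96 (log2 signal) on the KO arrays, against 8.80, 8.51 and 8.70 on the WT arrays. The arrays were alike over the whole table, with Pearson's r from 0.991 to 0.997 over the 15 array pairs. KO array 6 differed from the other 5 arrays in markers of sex: a Y-linked Eif2s3y probe read 11.80 there, against 3.19 to 3.43 elsewhere, and an Xist probe read 6.64, against 11.11 to 11.35. On these markers KO array 6 read as male and the other arrays as female, although the labels describe mice matched for sex. The 3′ minus 5′ signal of the Gapdh control probes was also higher on KO array 6, at 1.58 against 1.03 to 1.14. All 12 cerebellar marker genes were bright, with WT means between percentiles 91.5 and 99.6 of all probes. The 6 measured striatal markers lay between percentiles 45.1 and 94.4, the 4 forebrain cortex markers between 28.6 and 66.1, and the 3 olfactory markers between 18.1 and 42.3.

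Gnas is an imprinted gene with several alternative first exons, which give Gs alpha itself, its extra-large form and the chromogranin-like NESP55. Promoter windows of 250 bases before annotated starts are shown. Which of these forms, if any, each start gives was not determined, and no probe was assigned to a start. Sequences are from RefSeq (build GRCm38.p6), 5′ to 3′ on the strand of the gene. Capitals mark TGACG or its reverse complement CGTCA, the half-site of the cAMP response element, searched on both strands. The upstream start, chr2:174284070-174284319 on the plus strand, holds none, the next has 1 match beginning 38 bases before its start, and the most downstream has 1 match beginning 216 bases before its start.
Gnas upstream start: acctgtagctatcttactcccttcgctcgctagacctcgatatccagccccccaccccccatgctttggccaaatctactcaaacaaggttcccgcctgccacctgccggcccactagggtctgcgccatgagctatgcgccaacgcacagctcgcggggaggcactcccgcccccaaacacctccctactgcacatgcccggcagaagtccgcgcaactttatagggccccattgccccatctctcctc
Gnas middle start, chr2:174327499-174327748: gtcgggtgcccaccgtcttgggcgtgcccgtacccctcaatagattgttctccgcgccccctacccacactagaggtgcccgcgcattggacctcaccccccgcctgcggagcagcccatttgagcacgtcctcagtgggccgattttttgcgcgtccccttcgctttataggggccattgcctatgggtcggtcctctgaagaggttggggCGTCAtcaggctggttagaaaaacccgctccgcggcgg
Gnas downstream start, chr2:174329756-174330005: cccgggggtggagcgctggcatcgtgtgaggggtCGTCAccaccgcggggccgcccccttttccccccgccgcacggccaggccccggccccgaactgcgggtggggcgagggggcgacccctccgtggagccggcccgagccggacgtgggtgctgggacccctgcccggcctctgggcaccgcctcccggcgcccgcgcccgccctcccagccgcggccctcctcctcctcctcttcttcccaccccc
Among the cyclase genes with a window, the forskolin-insensitive isoform gene Adcy9 has the half-site nearest to a start, at 24 bases before it (chr16:4420499-4420748, minus strand). Adcy7 has one at 28 bases before a start.
Adcy9: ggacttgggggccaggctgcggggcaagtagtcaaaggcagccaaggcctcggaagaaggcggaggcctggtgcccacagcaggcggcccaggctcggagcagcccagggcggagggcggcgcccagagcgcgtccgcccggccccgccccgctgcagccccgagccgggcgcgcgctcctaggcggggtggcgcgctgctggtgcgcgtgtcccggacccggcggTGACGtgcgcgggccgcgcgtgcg
There were 13 windows for 7 of the 10 genes, and none for Gnal, Adcy6 or Adcy8. A half-site was found in 5 of the 13 windows, in Gnas, Adcy7 and Adcy9, against 17.8% of all 32851 windows of the same length. The middle Gnas start has a second, overlapping window with the same match. The full element TGACGTCA was in 0 of the 13 windows and in 1.55% of all windows. A match is a description of letters and not evidence of a site in use.

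No probe of these genes passed an adjusted p of 0.05 (limma, Benjamini-Hochberg over all 45037 probes). This is 0 of 28 member probes, beside 0.0222% of all probes. The smallest adjusted p among the 28 was 0.639. At an unadjusted p under 0.05 there was 1 of 28, beside 7.61% of all probes. The 3 KO arrays lay entirely above the 3 WT arrays in 2 of the 28 probes, beside 8.25% of all probes, and entirely below in 0, beside 5.34%. The differences, always KO minus WT on the log2 scale, ran from -0.20 to 0.31, with a median of 0.05 against 0.01 over all probes. Of the 28, 26 were smaller than 0.2 in size and 23 had a 95% interval that stayed within 0.5 on either side of 0. The interval that reached farthest from 0 ended at -0.75. In bulk tissue a smaller share of cells that express a gene and less RNA per cell cannot be told apart. Exact permutation of 3 against 3 arrays cannot give p below 0.1, so single probes were not tested that way.

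**Figure D1:**
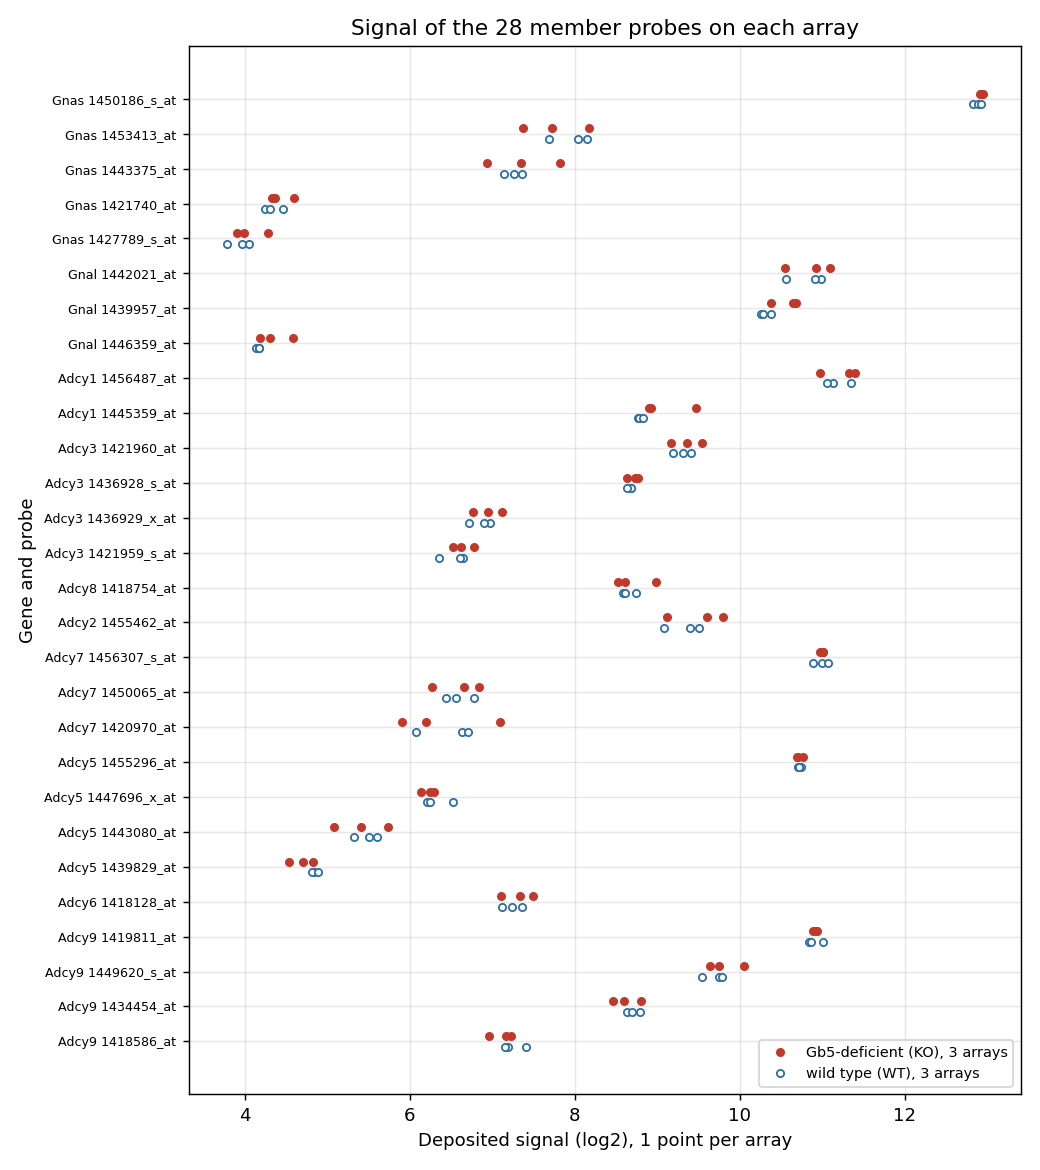
Deposited log2 signal (x axis) of each of the 28 probes (y axis, gene and probe) on the 3 KO arrays (filled red) and the 3 WT arrays (open blue), 1 point per array. The groups overlap in 26 of the 28 probes, and probes of 1 gene can lie far apart, as for Gnas, whose probe means run from 3.99 to 12.90.

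Gnas was measured by 5 probes, and the brightest had the smallest SE of the 28 probes. It read 12.91, 12.92 and 12.94 on the KO arrays, against 12.83, 12.89 and 12.92 on the WT arrays. The means were 12.92 ± 0.02 in KO and 12.88 ± 0.05 in WT (SD, n = 3 each), at percentile 99.1 of all probes in WT. The KO to WT ratio of signal was 103% with a 95% interval of 95.0% to 112% (difference 0.04, SE 0.05, limma adjusted p = 0.838). The probe's name ends in _s_at, which the maker uses where the probes match more than 1 transcript, not always of the same gene. The annotation pairs this probe with Gnas only and does not say which transcripts it reads. All 6 arrays lay within a narrow band, with WT array 1 the lowest.

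The other Gnas probes were dimmer and more scattered. Probe 1453413_at read 7.72, 8.17 and 7.38 on the KO arrays, against 8.04, 7.68 and 8.14 on the WT arrays, and had a difference of -0.20 (95% interval -0.67 to 0.28). Probe 1443375_at read 6.93, 7.35 and 7.82 on the KO arrays, against 7.27, 7.14 and 7.36 on the WT arrays, and had a difference of 0.11 (95% interval -0.36 to 0.59). KO array 6 was the lowest array for the first of these and the highest for the second, and the groups overlapped in both. Without KO array 6 the differences were -0.01 and -0.11, so the second changed sign. Probes 1421740_at and 1427789_s_at lay below the 30th percentile of probe means (4.70), with differences of 0.09 and 0.12.

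Gnal encodes Golf alpha, the stimulatory subunit known from olfactory neurons and striatum, where it stands in for Gs. Of its 3 probes, 2 were bright in this tissue. Probe 1439957_at had the smallest unadjusted p of all 28: it read 10.64, 10.38 and 10.68 on the KO arrays, against 10.38, 10.26 and 10.28 on the WT arrays. KO arrays 4 and 6 lay above all WT arrays, and KO array 5 lay just under WT array 1. The means were 10.57 ± 0.17 in KO and 10.31 ± 0.06 in WT (SD, n = 3 each), a difference of 0.26 (SE 0.10, 95% interval 0.03 to 0.49, unadjusted p = 0.0317), which did not pass with a limma adjusted p of 0.639. It stayed between 0.20 and 0.35 without any 1 array.

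The brightest Gnal probe did not show this difference. Probe 1442021_at read 11.10, 10.55 and 10.92 on the KO arrays, against 10.98, 10.91 and 10.56 on the WT arrays. KO array 5 and WT array 3 were the low arrays, and the groups overlapped fully, with a difference of 0.04 (SE 0.16, 95% interval -0.31 to 0.39). The third probe, 1446359_at, was dim, below the 30th percentile, and was 1 of the 2 without overlap between genotypes. It read 4.30, 4.19 and 4.58 on the KO arrays, against 4.14, 4.17 and 4.17 on the WT arrays. Its difference was 0.20 (limma adjusted p = 0.707), and 0.08 without KO array 6. Striatal genes, which could bring Gnal signal with them, had a summed signal (log2 of the linear sum) of 12.30 to 12.54 in KO and 12.24 to 12.41 in WT. Most of this sum came from Tac1 (WT mean 11.54) and Penk (10.54), while the others had WT means from 6.05 (Drd1) to 7.91 (Drd2). All 6 measured genes were higher in KO by 0.05 to 0.24, and 0 of the 6 passed. The part of striatal genes in the Gnal values was not tested.

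The genes whose signal over the 6 arrays was most like that of Gnal probe 1439957_at, among 25962 probes of other genes above the 30th percentile, were Pagr1a (Pearson's r 0.997), Zfp385c (0.993), Crtc2 (0.989), Zfp869 (0.988) and Dgke (0.987). In all, 49 probes had r over 0.95 across these 6 arrays, which are few and fall into 2 genotypes, so the likeness is a description only.

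Adcy1, Adcy3 and Adcy8 encode isoforms that calcium and calmodulin stimulate, linking calcium entry to cAMP in neurons. All 7 of their probes had positive differences, from 0.04 to 0.31, and 0 of 7 passed. Adcy8 turned to -0.00 with array weights, and 4 of the 7 changed sign without 1 or another array. Several of these probes read the same transcript and are not separate evidence, and 53.5% of all probes on the array were higher in KO.

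Adcy1 had the largest difference among the 28 probes, in the dimmer of its 2 probes. Probe 1445359_at read 8.92, 8.89 and 9.47 on the KO arrays, against 8.77, 8.77 and 8.83 on the WT arrays. All KO arrays lay above all WT arrays, and KO array 6 lay far above the other KO arrays. The means were 9.10 ± 0.32 in KO and 8.79 ± 0.03 in WT (SD, n = 3 each), a difference of 0.31 (SE 0.16, 95% interval -0.05 to 0.66, limma adjusted p = 0.682). Without KO array 6 it was 0.12. KO array 6 had both the high Gapdh 3′ minus 5′ value and the differing sex markers. The part of RNA quality or of sex in this was not tested.

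The brighter Adcy1 probe, 1456487_at, read 11.40, 10.98 and 11.32 on the KO arrays, against 11.35, 11.13 and 11.06 on the WT arrays. Its ratio of KO to WT signal was 104% (95% interval 85.4% to 126%). KO array 5 was the lowest of the 6, as it also was for Gnal probe 1442021_at.

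Adcy3, known from olfactory and neuronal primary cilia, had 4 probes with differences of 0.04 to 0.10. Its brightest, 1421960_at, read 9.17, 9.55 and 9.36 on the KO arrays, against 9.19, 9.31 and 9.41 on the WT arrays, with a ratio of 104% (95% interval 85.8% to 126%). The second, 1436928_s_at, was the steadiest, at 8.64, 8.73 and 8.76 on the KO arrays, against 8.69, 8.68 and 8.63 on the WT arrays. The groups overlapped in all 4 Adcy3 probes.

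Adcy8 had 1 probe, which read 8.52, 8.98 and 8.60 on the KO arrays, against 8.58, 8.61 and 8.74 on the WT arrays. Its difference was 0.06 (SE 0.14, 95% interval -0.26 to 0.37), and -0.08 without KO array 5, the highest array.

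Adcy2 and Adcy7 encode isoforms that beta-gamma dimers stimulate when Gs alpha is also bound. None of their 4 probes passed or separated the genotypes. The 1 Adcy2 probe read 9.12, 9.80 and 9.61 on the KO arrays, against 9.08, 9.51 and 9.40 on the WT arrays. KO array 4 and WT array 1 were low and close together, so the genotypes overlapped. The means were 9.51 ± 0.35 in KO and 9.33 ± 0.22 in WT (SD, n = 3 each), a difference of 0.18 (95% interval -0.24 to 0.60). It was 0.38 without KO array 4 and 0.03 without KO array 5, and among all left-out arrays and alternatives its limma adjusted p of 0.361 without KO array 4 was the lowest for any of the 28 probes.

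Adcy7 showed a wide gap between probes. Probe 1456307_s_at read 11.01, 11.00 and 10.98 on the KO arrays, against 10.88, 11.00 and 11.07 on the WT arrays, with a ratio of 101% (95% interval 89.2% to 114%). Its other probes averaged 6.58 in KO and 6.59 in WT for 1450065_at, and 6.40 in KO and 6.47 in WT for 1420970_at. The last of these was the most scattered of the 28: it read 6.19, 7.09 and 5.91 on the KO arrays, against 6.63, 6.08 and 6.71 on the WT arrays. Its SD was 0.62 in KO and 0.34 in WT, and its difference of -0.08 had a 95% interval of -0.75 to 0.60.

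Adcy5 and Adcy6 encode the closely related pair that Gi alpha and calcium inhibit, and Adcy5 is the main cyclase of the striatum. The brightest Adcy5 probe, 1455296_at, was nearly constant, at 10.70, 10.77 and 10.69 on the KO arrays, against 10.70, 10.74 and 10.72 on the WT arrays. The means were 10.72 ± 0.04 in KO and 10.72 ± 0.02 in WT (SD, n = 3 each). The ratio of KO to WT signal was 99.8% (95% interval 89.0% to 112%, limma adjusted p = 0.995). All 4 Adcy5 probes had differences below 0, from -0.16 to -0.00, except that the brightest turned to 0.01 under a second quantile normalization and 3 of the 4 turned positive without 1 or another array, up to 0.10 for 1443080_at without KO array 5. Of the 4, 0 passed.

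The dimmest Adcy5 probe, 1439829_at, read 4.82, 4.54 and 4.70 on the KO arrays, against 4.84, 4.81 and 4.88 on the WT arrays. Its groups overlapped only through KO array 4 and WT array 2, and its limma adjusted p was 0.743. Adcy6 had 1 probe, which read 7.33, 7.11 and 7.49 on the KO arrays, against 7.12, 7.35 and 7.24 on the WT arrays, with a difference of 0.07 (SE 0.14, 95% interval -0.25 to 0.39).

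Adcy9 encodes the isoform that forskolin hardly activates. Its brightest probe, 1419811_at, read 10.94, 10.88 and 10.92 on the KO arrays, against 11.01, 10.84 and 10.87 on the WT arrays, and the KO to WT ratio was 101% (95% interval 89.0% to 114%). The other 3 probes had differences of 0.12, -0.08 and -0.13, so the probes of this gene went both ways. None passed, and the groups overlapped in all 4.

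**Figure D2:**
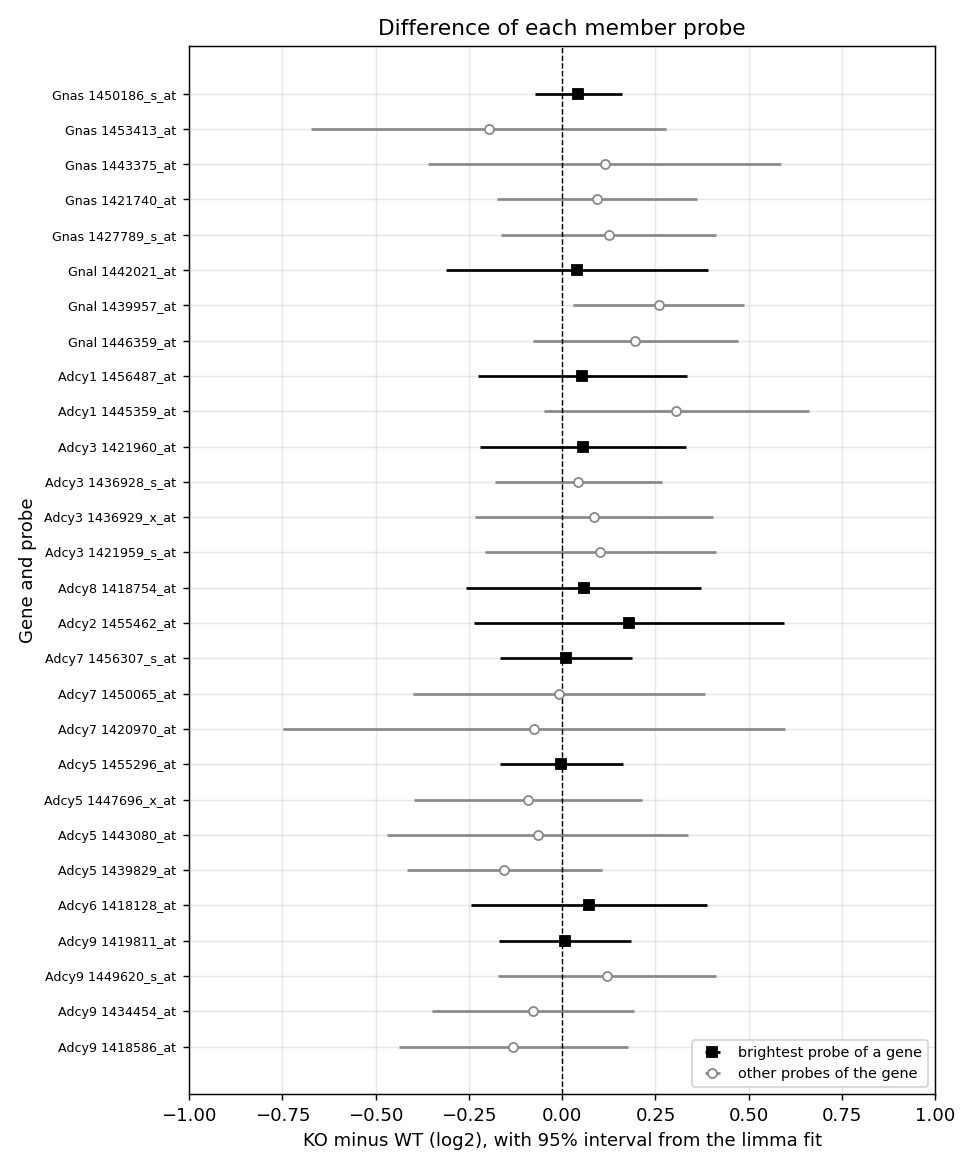
KO minus WT difference (log2, x axis) of each of the 28 probes (y axis) with its 95% interval from the limma fit. Black squares are the brightest probe of each gene and open circles its other probes. The interval of 1 probe, Gnal 1439957_at (0.03 to 0.49), lies off 0 before adjustment for the number of probes.

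The WT order of the cyclase genes was taken from the brightest probe of each. A probe's signal depends on its own sequence as well as on the RNA, so this is an order of signals and not of transcript amounts. Adcy1 came first, with a WT mean of 11.18 ± 0.15 (log2, SD, n = 3), followed by Adcy7 (10.99 ± 0.10), Adcy9 (10.91 ± 0.09) and Adcy5 (10.72 ± 0.02). Adcy2 (9.33 ± 0.22) and Adcy3 (9.30 ± 0.11) formed a middle pair. Adcy8 (8.64 ± 0.09) and Adcy6 (7.24 ± 0.12) came last. In percentiles of all probes in WT these ran from 92.4 for Adcy1 to 58.0 for Adcy6.

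Adcy1 and Adcy7 overlapped over the 3 WT arrays, as did Adcy7 and Adcy9, and Adcy2 and Adcy3. The other neighbours did not overlap in WT. Adcy5, Adcy8 and Adcy6 held places 4, 7 and 8 on each of the 6 arrays, so the KO arrays kept these as well. The order within the bright trio and within the middle pair changed from array to array in both genotypes: on KO array 5 and WT array 3, Adcy7 was first. When the probes of a gene were averaged, 3 of the 8 genes kept their place. Adcy5 moved from place 4 to place 8, Adcy7 from place 2 to place 5 and Adcy2 from place 5 to place 2. By brightest probe the place of Adcy7 rests on 1456307_s_at, a name ending used where the probes match more than 1 transcript, not always of the same gene. Signal from another gene in this probe was not tested. The other Adcy7 probes averaged 6.59 and 6.47 in WT. The means of single probes of 1 gene differed by up to 5.95 among the cyclases (Adcy5) and by 8.91 for Gnas, more than the 3.94 that separates the first from the last cyclase in WT.

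**Figure D3:**
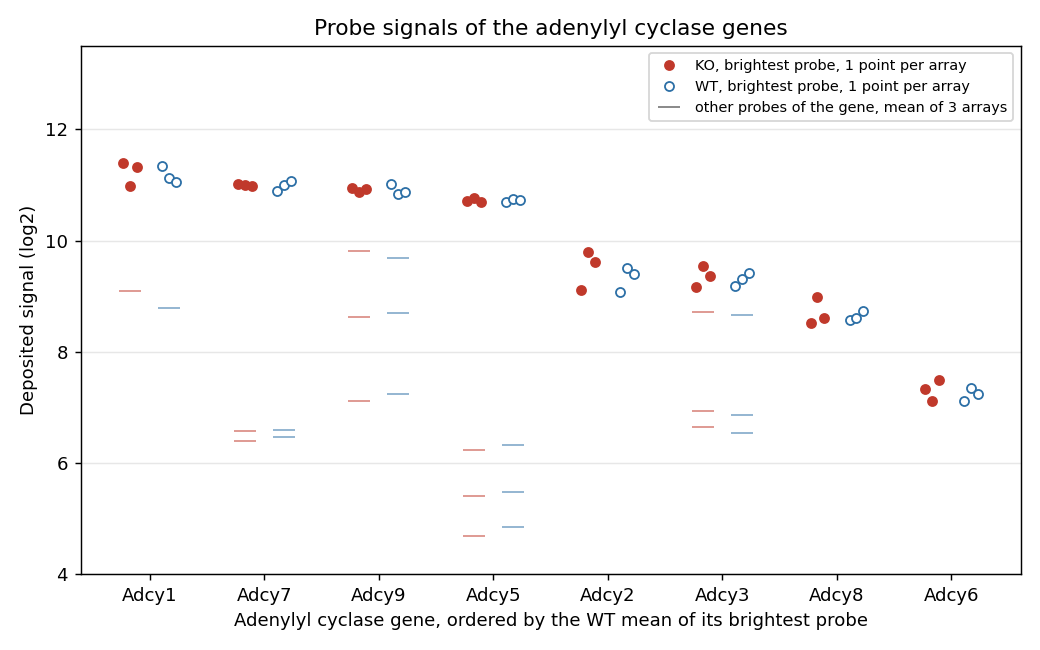
Deposited log2 signal (y axis) of the brightest probe of each cyclase gene (x axis, in WT order) on the KO arrays (filled red, left) and WT arrays (open blue, right), 1 point per array; dashes are the means of the gene's other probes. Adcy1, Adcy7, Adcy9 and Adcy5 lie between 10.69 and 11.40 on all 6 arrays, while their other probes lie lower, down to 4.69 for Adcy5.

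The highest values of these genes lay mostly on KO arrays, as did those of all probes on the array. KO arrays 4, 5 and 6 were the highest of the 6 arrays for 4, 11 and 8 of the 28 probes, and WT arrays 1, 2 and 3 for 1, 1 and 3. Over all probes, KO array 5 was the highest for 24.4% and KO array 6 for 21.9%. KO arrays 4, 5 and 6 were the lowest for 3, 6 and 6 of the 28, and WT arrays 1, 2 and 3 for 8, 3 and 2. The share of lowest values over all probes was not computed. The median distance of a probe from its genotype mean was 0.18 on KO array 5, against 0.10 over all probes on that array. On WT array 2 it was 0.06, against 0.08 over all probes. KO array 5 was high for Adcy2, Adcy8, the brightest Adcy3 probe and Adcy9 probe 1449620_s_at (10.05 against 9.63 and 9.74 on KO arrays 4 and 6), and low for Adcy6, Gnal 1442021_at and Adcy1 1456487_at.

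**Figure D4:**
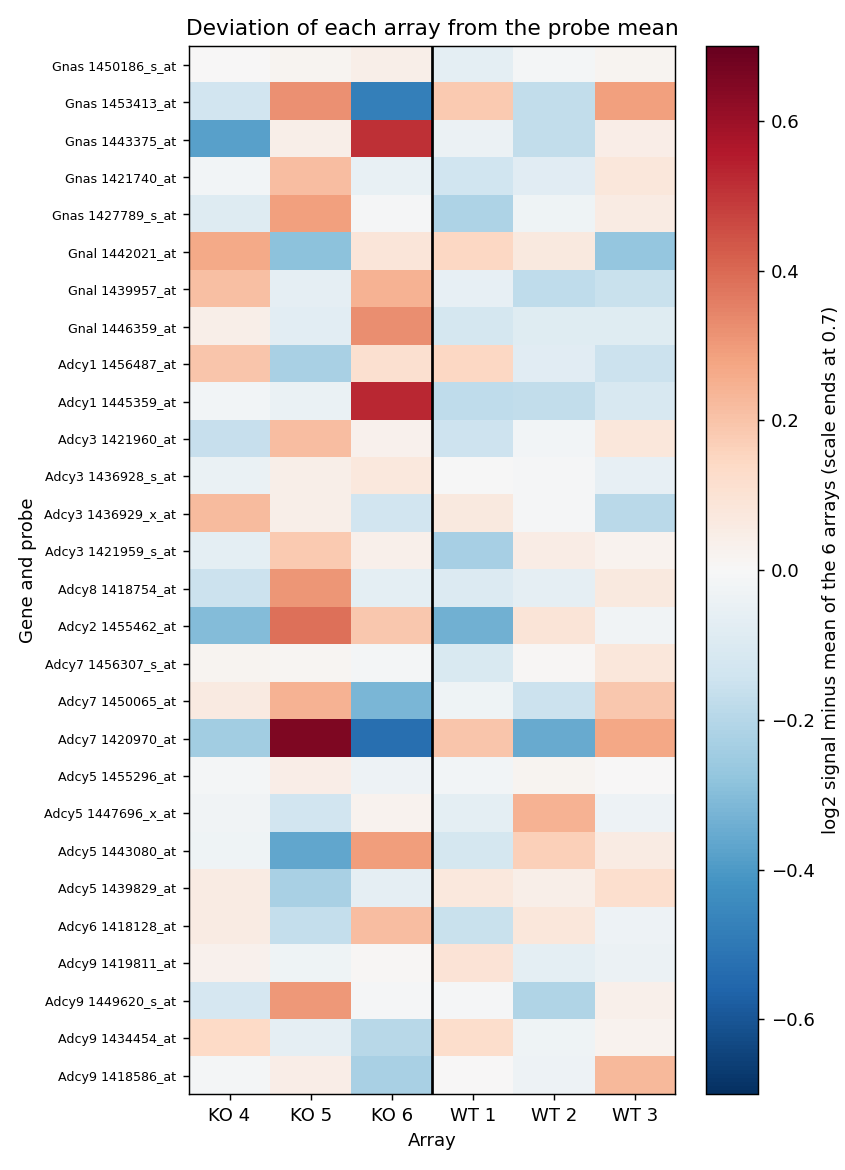
Deviation of each array (x axis, KO 4 to 6 left of WT 1 to 3) from the mean of the 6 arrays (log2, colour) for the 28 probes (y axis). The strongest colours stand on KO arrays 5 and 6, in opposite directions for Adcy7 1420970_at (7.09 and 5.91).

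Other genes of cAMP signalling were taken from 9 lists of 101 genes, of which 86 were measured, each by its brightest probe. Of these, 1 fell, Cap1, and 0 rose, beside 0.0385% of all genes with a passing probe. The lists were chosen with earlier results of these data known, so this count is a description and not a test of cAMP signalling. The median difference over the 86 was -0.00, against 0.02 over all genes, with 43 higher and 43 lower. At an unadjusted p under 0.05 there were 5 of 86, beside 7.43% of all genes. In 2 of the 86 all KO arrays lay above all WT arrays, beside 9.5% of all genes, and in 4 all lay below, beside 4.47%.

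The remaining cyclases did not pass. Adcy4, a beta-gamma-stimulated isoform, read 6.90, 7.34 and 6.94 on the KO arrays, against 6.96, 7.31 and 7.10 on the WT arrays. Adcy10, the soluble cyclase activated by bicarbonate, was dim, at 3.68, 3.63 and 3.55 on the KO arrays, against 3.58, 3.67 and 3.46 on the WT arrays.

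Among proteins that bind cyclases or fold alpha subunits, Cap1 was the gene that fell. Cap1 encodes a cyclase-associated protein known mainly for actin turnover in mammals and named for its cyclase partner in yeast. It read 7.89, 8.71 and 7.64 on the KO arrays, against 10.45, 10.52 and 10.56 on the WT arrays (difference -2.43, SE 0.23, limma adjusted p = 0.0178). The call was lost without WT array 2 (adjusted p = 0.175), WT array 3 (0.0988) or KO array 6 (0.0686) and without the intensity trend (0.0629), while the difference stayed between -2.43 and -2.21; the adjusted p over all alternatives ran from 0.000149 to 0.175. The second, dimmer Cap1 probe had a difference of -1.81 and did not pass (limma adjusted p = 0.142). The paralogue Cap2 had a difference of -0.07.

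Ric8b, the chaperone and exchange factor of Golf and Gs alpha, had its brighter probe at 9.50, 9.54 and 9.45 on the KO arrays, against 9.19, 9.06 and 9.43 on the WT arrays. The groups did not overlap, by a margin smaller than 0.1, and the difference of 0.27 (SE 0.11) did not pass (limma adjusted p = 0.649). The second Ric8b probe had a difference of -0.11. Ric8a, which serves the other alpha classes, had a difference of 0.05.

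Upstream, the 23 measured Gs-coupled receptors had a median difference of 0.04 and 0 passed. The widest differences were those of the orphan receptor Gpr26 (0.48, adjusted p = 0.649) and the serotonin receptor Htr4 (-0.29, adjusted p = 0.795). Adcyap1r1, the PACAP receptor, lay above WT on all KO arrays, at 10.91, 10.97 and 11.13 in KO, against 10.68, 10.91 and 10.91 in WT, with the nearest pair equal at this precision, and Pth2r lay below (difference -0.26). The 8 measured calmodulin regulators had a median of 0.02, with Nrgn at 0.16 and the calcineurin subunit Ppp3r1 at 0.09. None passed.

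Downstream, the 9 subunits and inhibitors of protein kinase A had a median of -0.05, with the regulatory subunit Prkar1b at 0.27 and the inhibitor Pkib at -0.23. The 11 anchoring proteins had a median of -0.00 (Akap13 -0.14, Akap5 -0.10), and the 7 measured Epac, HCN, CNG and Popeye genes one of 0.06 (Popdc2 -0.10, Hcn3 0.10). The 8 CREB factors and coactivators had a median of -0.03, with the widest differences for the coactivator Ep300 (-0.23) and for Crem (-0.17). Ep300 and Creb1 (-0.15) lay below WT on all KO arrays. The 15 cAMP-responsive genes had a median of -0.00, with Nr4a1 at 0.62 (adjusted p = 0.649) and Fos at 0.33. None of the genes in these lists passed.

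**Figure D5:**
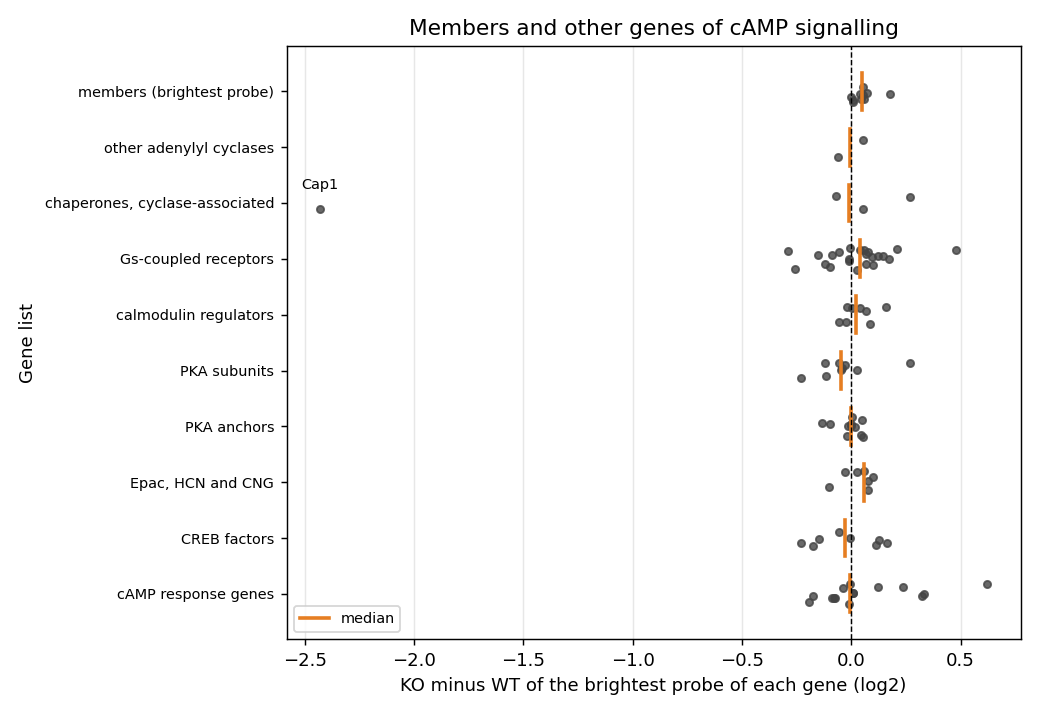
KO minus WT difference (log2, x axis) of the brightest probe of each gene for the 10 members and for 9 lists of other cAMP signalling genes (y axis); each point is a gene and orange bars are medians. All points lie between -0.29 and 0.62 except Cap1 at -2.43.

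Marker lists of cells that the tissue could hold were read beside these values. Signals were summed on the linear scale and given as log2 of the sum. The summed cerebellar marker signal was 15.88 to 16.19 in KO and 15.99 to 16.19 in WT. Forebrain cortex genes summed to 9.02 to 9.15 in KO and 8.93 to 9.11 in WT, and olfactory genes to 6.69 to 6.74 in KO and 6.56 to 6.97 in WT. Of the forebrain cortex genes 2 were lower and 2 were higher. Tbr1 had the widest difference of them (-0.48, limma adjusted p = 0.605), with all KO arrays below all WT arrays. Choroid plexus genes summed to 11.79 to 13.81 in KO and 13.42 to 13.91 in WT, and most of that sum came from Ttr (WT mean 13.55). For every gene of this list WT array 1 was the highest WT array and KO array 4 the lowest KO array. Kcnj13, for instance, read 6.84, 8.11 and 8.41 on the KO arrays, against 9.38, 7.61 and 7.34 on the WT arrays. Red cell genes summed lower in KO (11.11 to 11.41) than in WT (11.82 to 12.06), as did oligodendrocyte genes (14.67 to 14.74 in KO, 14.81 to 14.84 in WT). Among the red cell genes 3 were lower and 1 was higher (Hba-a2, 0.08). Among the oligodendrocyte genes 3 were lower and 1 was higher (Mbp, 0.02). Microglial genes summed to 11.69 to 12.17 in KO and 11.67 to 11.87 in WT, and astrocyte genes to 14.66 to 14.79 in KO and 14.72 to 14.76 in WT. In these lists 0 genes passed, and their part in the cyclase values was not tested.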

How the data were processed

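Expression was measured in cerebellar or brain tissue of 3 KO and 3 WT mice. The authors' deposited table holds log2 signals. The submitters' processing notes name RMA and Partek without versions. RMA corrects background, quantile-normalizes arrays and summarises probe sets, so a global change would not be seen. Per the labels' protocols, RNA was extracted with Trizol. Scanner files, detection calls and scan dates were not used here, so no batch could be tested. Probes were named from the platform annotation through RefSeq (GRCm38.p6).

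Each of 45037 probes was fitted with limma 3.58.1 in R 4.3.3, KO minus WT, with an intensity trend, empirical Bayes and Benjamini-Hochberg adjustment over all probes; intervals are 95%. The fit was tested on simulated data. No probe was filtered. Where a list gives 1 value a gene, it is that of the gene's brightest probe over all arrays.

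The members and lists were chosen with earlier results of these data known. Named genes are all member probes, the full lists of other cyclases and of chaperones, passing genes and the 2 widest differences of each other signalling list, and the 5 probes most like the member probe of smallest p; Adcyap1r1, Pth2r and Creb1 were named after their values were seen. Alternatives were a filter on dim probes, other probe summaries, normalizations, variance models, array weights and single arrays left out. The number of arrays limits precision; the labels call the samples biological replicates.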

Additional observations from a re-analysis of the deposited data

How the results depend on the processing

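No member probe passed under any of the alternatives. Of 343 values of member probes under 7 other settings and 6 left-out arrays, 312 kept their sign. The 5 that changed sign with all arrays were Adcy5 1455296_at under a second quantile normalization (0.00742), Adcy7 1456307_s_at and Adcy9 1419811_at with array medians subtracted (-0.0153 and -0.0178), and Adcy8 and Adcy7 1456307_s_at with array weights (-0.00189 and -0.0153). The other 26 came with 1 array left out, where the ranges were -0.11 to 0.33 for Gnas 1443375_at, -0.0861 to 0.19 for Gnal 1442021_at, -0.0289 to 0.18 for Adcy1 1456487_at, -0.0384 to 0.15 for Adcy3 1421960_at, -0.00368 to 0.17 for Adcy3 1436929_x_at, -0.0811 to 0.15 for Adcy8 1418754_at, -0.0411 to 0.0538 for Adcy7 1456307_s_at, -0.13 to 0.15 for Adcy7 1450065_at, -0.42 to 0.17 for Adcy7 1420970_at, -0.0256 to 0.0134 for Adcy5 1455296_at, -0.15 to 0.00669 for Adcy5 1447696_x_at, -0.23 to 0.0996 for Adcy5 1443080_at, -0.0176 to 0.17 for Adcy6 1418128_at, -0.0241 to 0.0587 for Adcy9 1419811_at, -0.000782 to 0.21 for Adcy9 1449620_s_at. Over all probes the count passing was 5 with 1 bright probe a gene (fewer features were tested), 17 with medians subtracted, 16 with array weights, 16 at an adjusted p of 0.1 and 6 to 24 with 1 array left out (24 without WT array 1, 16 without KO array 4, 6 without WT array 3 or KO array 6), against 10. Member probes without overlap numbered 1 with the filter, with a second quantile normalization or with medians subtracted, 0 with 1 bright probe or the mean of probes per gene, and 2 to 6 with 1 array left out (6 without KO array 4, 4 without WT array 1 or 3), where fewer arrays need to separate, against 2. Those with an unadjusted p under 0.05 numbered 0 with either gene summary or medians subtracted, 2 with array weights and 0 to 2 with 1 array left out (0 without WT array 2, WT array 3 or KO array 6, 2 without KO array 4 or 5), against 1. For both kinds of count the share over all probes was not computed under these settings. The counts therefore cannot be read as changes in the members. Signalling genes passing numbered 0 without the intensity trend and 0 to 1 with 1 array left out, against 1. Cyclase genes in their WT place numbered 3 of 8 with the mean of probes, 4 on WT array 1 alone, 4 on WT array 3 alone, 6 on KO array 4 alone and 6 on KO array 5 alone. Except where stated, the cause was not tested. No paired analysis was possible because the array numbers 1 to 3 and 4 to 6 are not shared between genotypes.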
